A study of Saccharomyces cerevisiae with 25 samples.

Results

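Extracellular glucose is read in *Saccharomyces cerevisiae* by a short pathway that ends at the transcription factor Rgt1, and the 8 genes that make up its core were followed here across all libraries. They were listed by name and systematic identifier from their place in the pathway, with earlier results of these data known, and all 8 of the 6713 genes listed had counts in every library and were among the 5713 genes tested. The transcriptome had been measured by poly(A) RNA sequencing in 25 cultures of 5 strains, with 5 cultures per strain. The *RGT2(V539I)* strain carried the isoleucine codon of the RM wine strain in the glucose sensor gene *RGT2*, and was compared with YFA1131, in which a deletion of *RGT2* had been replaced with the BY laboratory allele. The *OAF1(L63S)* strain, with a missense change in an oleate-responsive transcription factor, and the *OLE1(FAR)* strain, with the RM base in the fatty acid regulated promoter element of a desaturase gene, were compared with YFA1130, a wild type from which a GFP tag on *FAA4* had been removed. YFA1131 was also compared with YFA1130, the wild types having been rebuilt at different loci.

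All strains share the BY laboratory background, had been through the CRISPR-Swap allele exchange, and were grown in YNB medium with glucose. Each genotype is 1 strain, so the 5 cultures are replicates of that strain and not of independent edits, and p-values measure only the spread between cultures. The study's sample table places the cultures in 3 harvest batches (6, 7 and 12 libraries), 5 RNA isolation batches that each hold 1 culture of every strain, and library preparation batches. Replicates are named here by the letter of their culture. Library totals ranged from 9216531 to 14644996 estimated counts. *LEU2*, *URA3* and *MET17*, auxotrophic marker genes deleted in BY strains, had a count of 0 in all 25 libraries, while *HIS3*, of which BY strains carry a partly deleted allele, had 827 to 1529 counts. Levels are given in CPM, the library-size-scaled count unit, after normalisation by trimmed mean of M values (TMM), and differences as log2 fold changes.

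In this pathway, Rgt2 and Snf3 are transporter-like membrane proteins that bind glucose and signal through long cytoplasmic tails, Rgt2 at high glucose and Snf3 at low glucose. The signal acts through the membrane-bound casein kinases Yck1 and Yck2, and leads to the phosphorylation of the paralogous co-repressors Mth1 and Std1, which the F-box protein Grr1 then marks for destruction. Without Mth1 and Std1, Rgt1 releases the promoters of the hexose transporter (*HXT*) genes.

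The base changed in the *RGT2(V539I)* strain lies in the single exon of *RGT2* (YDL138W), on chromosome IV from 213351 to 215642 of the R64 (sacCer3) reference, on the forward strand. Computed here from the R64 coding sequence, V539I corresponds to G214965A, counted along the chromosome, the 1 single-base change of that codon that gives isoleucine. The codon is shown here in capitals in the reference sequence, together with the codon of *SNF3* (YDL194W, chromosome IV, 111580 to 114234) that aligns with it, so that the paralogs can be compared at the changed position.
RGT2, chrIV:214944-214988, forward strand: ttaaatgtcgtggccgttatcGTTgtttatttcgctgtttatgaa
SNF3, chrIV:113164-113208, forward strand: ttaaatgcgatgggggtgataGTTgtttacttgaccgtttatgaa
Codon 536 of *SNF3* is also GTT and both encode valine, and 10 of the 15 residues in the window are identical. The 2 sensors are 62.8% identical over 752 aligned residues, Yck1 and Yck2 77.5% over 498, and Mth1 and Std1 61.3% over 429. The longest run of bases shared within a pair was 21 in *RGT2* and *SNF3*, 19 in *YCK1* and *YCK2*, and 17 in *MTH1* and *STD1*. All 8 genes had whole-number counts in all 25 libraries, and none overlaps another annotated gene.

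The levels of the genes, taken per length so that they can be set against each other, fell in a fixed order for the most part. *YCK2* (YNL154C, chromosome XIV) was highest, at a mean of 133.8 CPM per kb of coding sequence over 25 libraries (117.2 to 145.9), followed by *YCK1* (YHR135C, chromosome VIII) at 102.0 (87.9 to 118.0). *STD1* (YOR047C, chromosome XV, 416347 to 417681) was at 57.9 (46.9 to 72.0) and *MTH1* (YDR277C, chromosome IV, 1014401 to 1015702) at 34.2 (18.9 to 59.7). The kinases and the co-repressors thus formed ranges that did not overlap, while within each pair the ranges overlapped. *GRR1* (YJR090C, chromosome X), at 28.2 CPM per kb (24 to 31), lay inside the range of *MTH1*. The sensor *RGT2* was at 19.2 CPM per kb (16.3 to 21.8), *RGT1* (YKL038W, chromosome XI) at 14.9 (12.7 to 16.8), and *SNF3* lowest at 13.2 (11.1 to 14.8), so that *RGT1* overlapped with both sensors while the sensors did not overlap with each other.

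**Figure D1:**
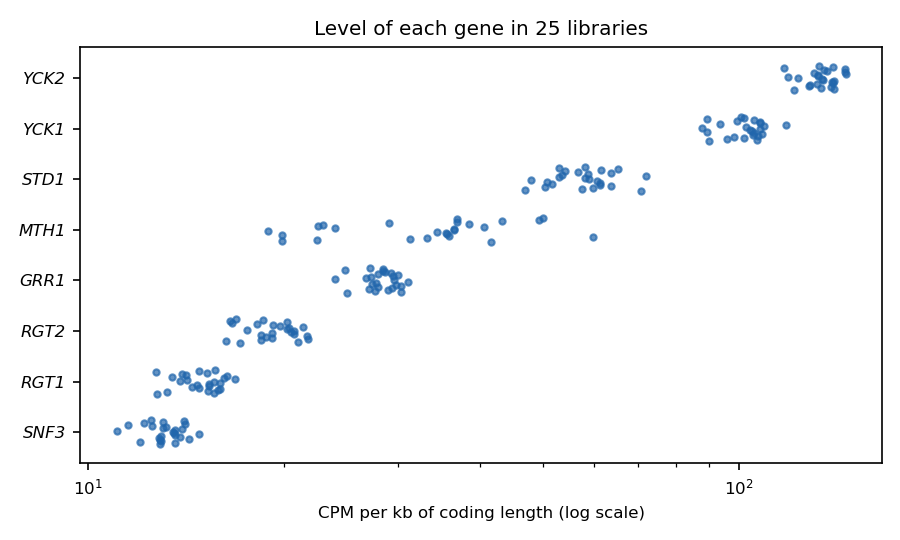
Level of each gene in CPM per kb of coding length on a log axis, 1 point per library (25 per gene), genes ordered by mean. *MTH1* spreads from 18.9 to 59.7 and takes in the whole range of *GRR1*, while the other genes stay within narrow bands.

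*MTH1* was the variable gene of the pathway. Its highest library was 3.15 times its lowest, against 1.24 to 1.54 times for the other 7 genes. The pooled standard deviation within strains was 0.42 on the log2 CPM scale for *MTH1* and 0.17 for *STD1*, and between 0.085 and 0.12 for the other 6. The median over all 5713 genes was 0.13, and 7.02% of genes had a larger value than *MTH1*. Among the 2293 genes with a mean between 20 and 80 CPM, 43 had a larger value than *MTH1*. The smallest *MTH1* count was 253 and the largest 1108.

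The question of the first comparison is whether a changed sensor alters the messages of its own pathway. By the fitted values, the co-repressor gene *MTH1* was higher in *RGT2(V539I)* than in YFA1131 and its paralog *STD1* slightly lower. These were the 2 of 8 genes that passed a 10% false discovery rate (FDR), where 1.05% of all genes tested passed. The sensor, kinase, F-box and *RGT1* messages did not pass, with fitted log2 fold changes between -0.10 and 0.05. Of 11 alternative analyses the call of *MTH1* was lost in 5 and that of *STD1* in 10.

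**Figure D2:**
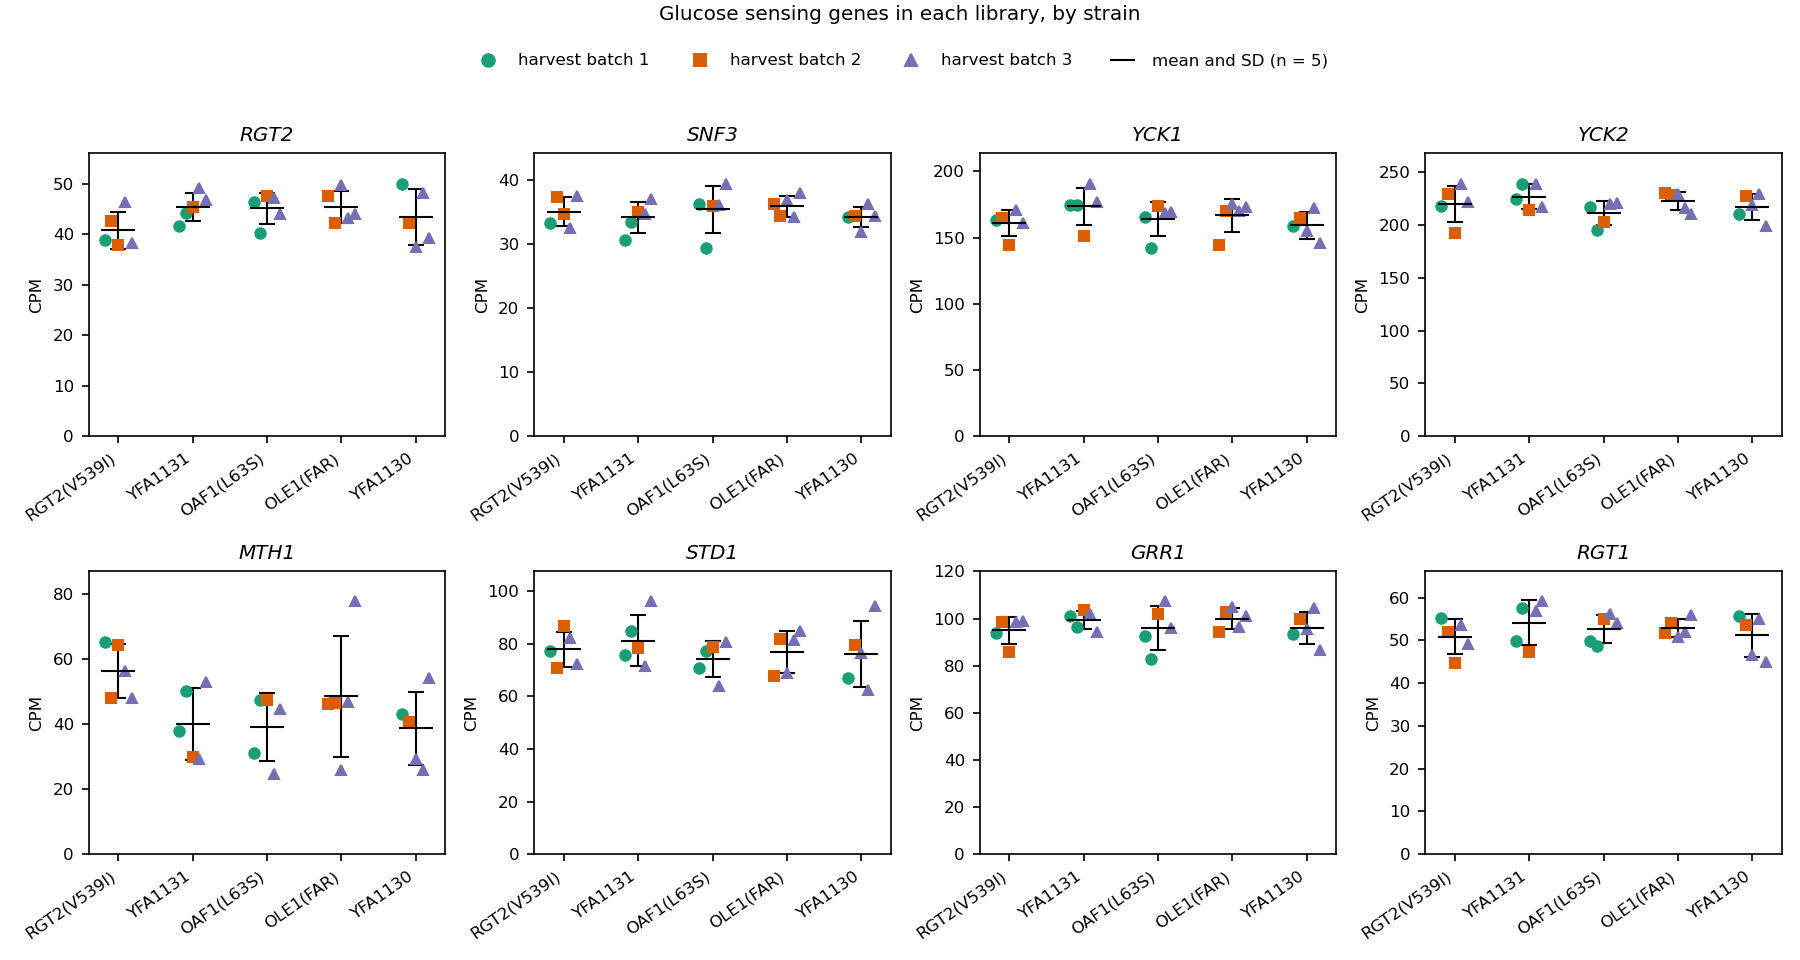
TMM-normalised CPM of the 8 genes in each library, by strain, with the harvest batch as colour and shape and the mean ± SD of 5 libraries in black. *MTH1* lies between 48.0 and 65.1 CPM in *RGT2(V539I)* and between 29.4 and 52.9 in YFA1131.

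*MTH1* was at 65.1 (replicate B), 48.0 (C), 64.3 (D), 56.3 (F) and 48.0 (G) CPM in *RGT2(V539I)*, against 37.7 (A), 50.1 (B), 29.9 (C), 29.4 (E) and 52.9 (F) CPM in YFA1131. Replicates B and F of YFA1131 reached into the range of the edited strain, so the groups overlapped. The means were 56.4 ± 8.34 CPM in *RGT2(V539I)* and 40.0 ± 11 CPM in YFA1131 (SD, n = 5 each). The fitted log2 fold change of *MTH1* was 0.47 (standard error 0.11, 95% interval 0.24 to 0.69), with an adjusted p = 0.0525 (edgeR quasi-likelihood test, Benjamini-Hochberg over all genes). The exact permutation test of the plain log2 CPM gave a difference of 0.53 and a two-sided p of 0.0476, or 0.701 after Benjamini-Hochberg adjustment over the 32 such tests run (smallest possible p 0.00794).

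Within RNA isolation batches, *MTH1* was higher in *RGT2(V539I)* in 4 of 5. The log2 CPM differences were 0.092 in batch 1, 0.71 in batch 2, 1.1 in batch 3, 0.79 in batch 4 and -0.059 in batch 5, so the differences were largest in batches 2 to 4. Batch 5 joined *RGT2(V539I)* replicate C of harvest batch 2 to YFA1131 replicate B of harvest batch 1. In isolation batches 1 to 4 both libraries came from the same harvest batch. By harvest batch the differences were 0.58 (1 library against 2), 0.89 (2 against 1) and 0.40 (2 against 2). With the isolation batch left out as a replicate block, the log2 fold change of *MTH1* was 0.42 with an adjusted p of 0.128 in edgeR, and no gene of the pathway passed. The call was also lost without YFA1131 replicate A (adjusted p = 0.117 in edgeR), B (0.170) or C (0.157), or without *RGT2(V539I)* replicate G (0.415).

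*STD1* was at 77.4 (B), 70.7 (C), 86.9 (D), 82.1 (F) and 72.2 (G) CPM in *RGT2(V539I)*, against 75.7 (A), 84.8 (B), 78.3 (C), 71.5 (E) and 96.2 (F) CPM in YFA1131. The groups overlapped over most of their range, with means of 77.9 ± 6.77 CPM in *RGT2(V539I)* and 81.3 ± 9.62 CPM in YFA1131 (SD, n = 5 each). In YFA1130 the mean was 76.1 ± 12.4 CPM. The fitted log2 fold change of *STD1* was -0.16 (standard error 0.041, 95% interval -0.25 to -0.075), with an adjusted p = 0.0936 in the same edgeR test. The plain difference of mean log2 CPM was smaller, -0.058, with a two-sided p of 0.548 in the exact permutation test. *STD1* was lower in 2 of the 5 isolation batches and higher in 3. The adjusted p was above the threshold in 10 of 11 alternatives and without each of the 10 libraries in turn (0.110 to 0.485 in edgeR).

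**Figure D3:**
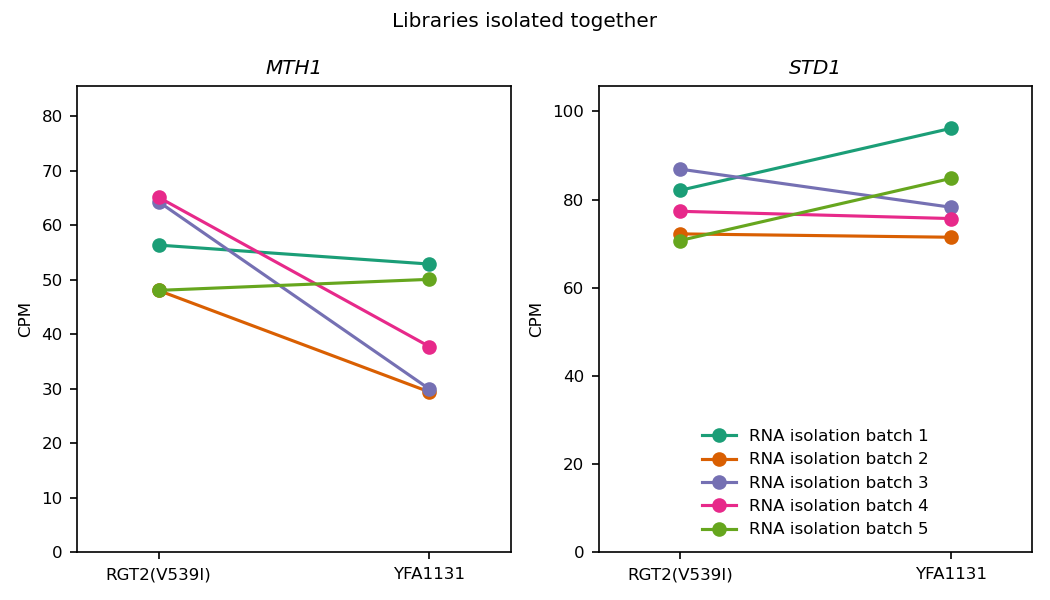
CPM of *MTH1* (left) and *STD1* (right) in the *RGT2(V539I)* and YFA1131 libraries, with a line joining the 2 libraries of each RNA isolation batch. *MTH1* is higher in *RGT2(V539I)* in 4 of 5 batches, and *STD1* is lower in 2 of 5. The libraries of batch 5 came from different harvest batches.

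The fit contained 2 surrogate variables, hidden factors estimated from all genes, and both co-repressor genes moved with them. Over 25 libraries Pearson's r was -0.61 between *MTH1* and the first variable and -0.56 with the second, and -0.82 between *STD1* and the second. Without these variables the log2 fold change was 0.67 for *MTH1* (adjusted p = 0.376 in edgeR) and -0.072 for *STD1* (adjusted p = 0.889). What the variables stand for was not tested.

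*MTH1* and *STD1* varied together from library to library, although their fitted changes in *RGT2(V539I)* had opposite signs. Pearson's r between them was 0.66 (Spearman's rho 0.69) over 25 libraries that share the normalisation, and 0.76 after each strain's mean was taken out. The ratio of *MTH1* to *STD1*, each per length, was 0.68 to 0.86 in *RGT2(V539I)*, against 0.39 to 0.61 in YFA1131, so these 2 groups did not overlap. In the other strains the ratio was 0.40 to 0.63 in *OAF1(L63S)*, 0.38 to 0.94 in *OLE1(FAR)* and 0.39 to 0.66 in YFA1130. The ratio was looked at after both genes had been seen, and was not tested.

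**Figure D4:**
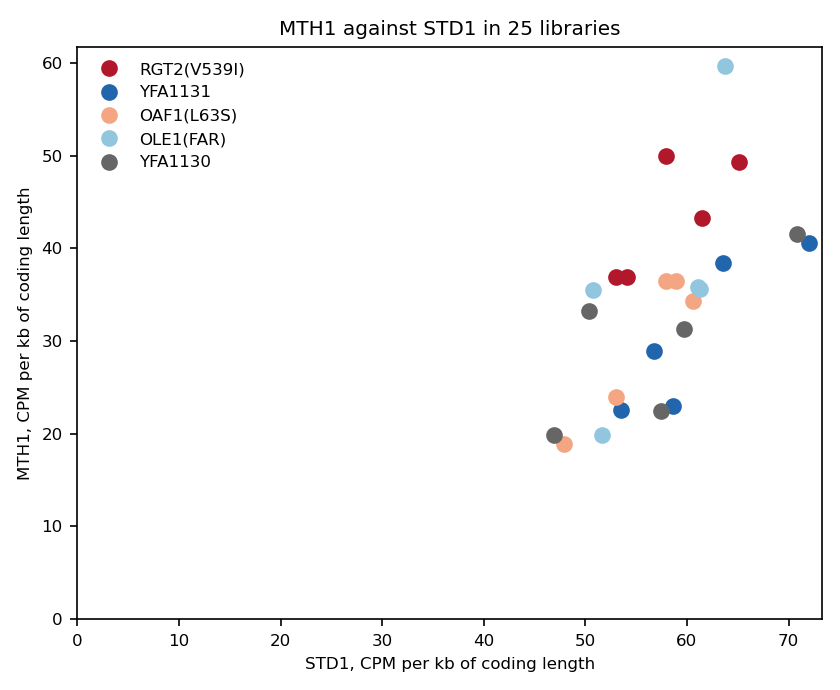
*MTH1* against *STD1*, both in CPM per kb of coding length, 1 point per library and 1 colour per strain. The 5 *RGT2(V539I)* libraries lie at higher ratios of *MTH1* to *STD1* than the 5 YFA1131 libraries, 0.68 to 0.86 against 0.39 to 0.61.

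The *RGT2* message itself was at 38.8 (B), 42.6 (C), 37.9 (D), 46.4 (F) and 38.2 (G) CPM in the strain edited in it, against 41.7 (A), 44.1 (B), 45.3 (C), 49.1 (E) and 46.7 (F) CPM in YFA1131. Lower values prevailed in *RGT2(V539I)*, below YFA1131 in all 5 isolation batches, but the groups overlapped through replicates C and F. The log2 CPM differences within batches ran from -0.36 in batch 2 to -0.0082 in batch 1, where the strains were nearly equal. The fitted log2 fold change was -0.10 (standard error 0.070, 95% interval -0.25 to 0.044, adjusted p = 0.945 in edgeR). The exact permutation test gave a two-sided p of 0.0635, or 0.701 after Benjamini-Hochberg adjustment over the 32 such tests. The neighbouring genes had log2 fold changes of 0.17 (*SCM3*, standard error 0.11) and 0.073 (*ARF2*, standard error 0.050), with adjusted p of 0.906 and 0.945 in the same edgeR test. *SNF3*, the high-affinity sensor gene, was at 32.4 to 37.4 CPM (median 34.7) in *RGT2(V539I)* and at 30.6 to 37.0 (median 34.6) in YFA1131, a log2 fold change of 0.050 (95% interval -0.093 to 0.19).

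The kinase genes showed no difference past the threshold. *YCK1* was at 161 ± 9.85 CPM in *RGT2(V539I)* and 174 ± 14.1 CPM in YFA1131 (SD, n = 5 each), and the fitted log2 fold change was -0.056 (95% interval -0.16 to 0.046). Like *RGT2*, *YCK1* was lower in *RGT2(V539I)* in all 5 isolation batches, by log2 CPM differences between -0.25 and -0.051. The exact permutation test of *YCK1* gave a two-sided p of 0.151. In the other wild type, YFA1130, *YCK1* was at 159 ± 10.1 CPM, near its level in *RGT2(V539I)*. *YCK2* was at 220 ± 17.3 CPM in *RGT2(V539I)* and 227 ± 11.7 CPM in YFA1131, with a log2 fold change of -0.034 (95% interval -0.14 to 0.070). The ratio of *YCK1* to *YCK2* per length was 0.73 to 0.76 in *RGT2(V539I)*, against 0.72 to 0.83 in YFA1131.

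*GRR1*, whose product selects Mth1 and Std1 for ubiquitination, was at 95 ± 5.59 CPM in *RGT2(V539I)* and 99.5 ± 3.94 CPM in YFA1131 (SD, n = 5 each), and its log2 fold change was -0.038 (95% interval -0.14 to 0.060). *RGT1*, the repressor gene at the end of the pathway, was at 50.9 ± 4.15 CPM in *RGT2(V539I)* and 54.1 ± 5.24 CPM in YFA1131, a log2 fold change of -0.032 (95% interval -0.16 to 0.096). For both the groups overlapped.

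**Figure D5:**
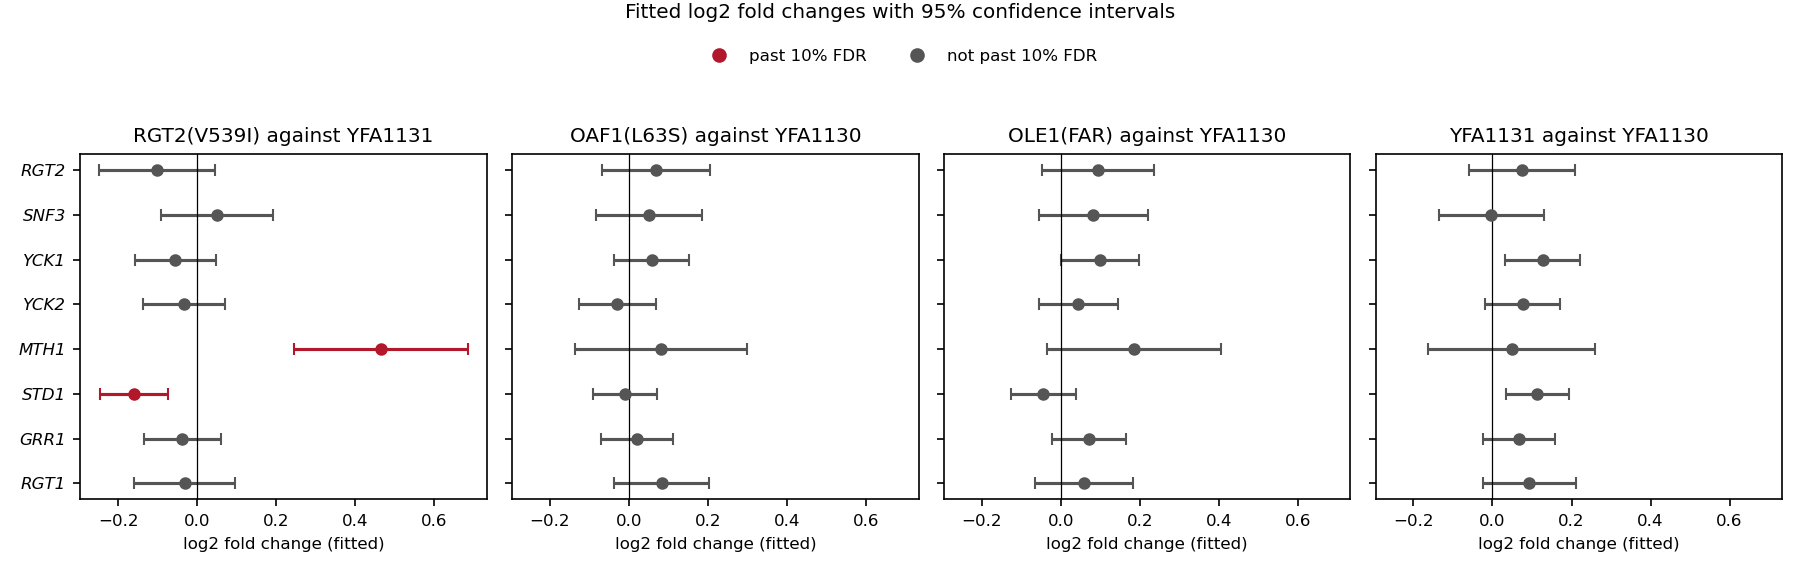
Fitted log2 fold changes of the 8 genes in the 4 comparisons, with 95% confidence intervals, red where the 10% FDR was passed. Only *MTH1* (0.47) and *STD1* (-0.16) in *RGT2(V539I)* against YFA1131 are red.

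Of the 8 genes listed as targets of Rgt1, 5 passed the 10% FDR in *RGT2(V539I)*, 3 higher and 2 lower. Among all genes tested 1.05% passed. The median log2 fold change of all 8 listed genes, called or not, was 0.10, against -0.0073 over all genes tested. The low-affinity transporter gene *HXT1* was at 969 ± 56.2 CPM in *RGT2(V539I)* and 1431 ± 210 CPM in YFA1131 (log2 fold change -0.55, adjusted p = 0.000738 in edgeR), and the groups did not overlap. The moderate-affinity transporter gene *HXT4* was at 374 ± 24.2 CPM in *RGT2(V539I)* and 118 ± 29.7 CPM in YFA1131 (1.61, adjusted p = 2.09e-07 in edgeR). Both calls held in all 11 alternatives and with each of the 10 libraries left out. *HXT7*, a high-affinity transporter gene nearly identical to *HXT6* so that reads may be divided between them, had a log2 fold change of 1.26 (adjusted p = 0.00147 in edgeR). Its call was lost in 1 of 11 alternatives and held with each of the 10 libraries left out. *HXT6* was at 0.074 and did not pass (adjusted p = 0.989 in edgeR). *HXT2* (0.90, adjusted p = 0.0833) and the repressor gene *MIG2* (-0.33, adjusted p = 0.0525) were called by the same test but lost the call in 4 of 11 alternatives each, and in 8 (*HXT2*) and 7 (*MIG2*) of 10 omissions of a library. In the other strain comparisons 0 of these 8 genes passed in edgeR. Of all genes tested 1.23% passed in *OAF1(L63S)*, 0.875% in *OLE1(FAR)* and 0.123% in YFA1131 against YFA1130. An unadjusted p under 0.05 was reached by 2 of the 8 in *OAF1(L63S)*, 1 in *OLE1(FAR)* and 2 between the wild types, in edgeR as in DESeq2. Of all 5713 genes tested, 349, 443 and 555 reached it in edgeR in these comparisons. DESeq2 called 1 of the 8 (*HXT1*, YFA1131 against YFA1130). The 2 between the wild types were *HXT1* (log2 fold change 0.24) and *MIG2* (0.21), both called lower in *RGT2(V539I)* against YFA1131. *HXT1* was at 969 ± 56.2 CPM in *RGT2(V539I)* and 1171 ± 146 CPM in YFA1130, and *MIG2* at 114 ± 20.6 CPM in *RGT2(V539I)* and 122 ± 33.1 CPM in YFA1130. Against the mean of both wild types the log2 fold change in *RGT2(V539I)* was -0.43 for *HXT1* (adjusted p = 0.00147 in edgeR) and -0.22 for *MIG2* (adjusted p = 0.249), which lost its call. Across harvest batches 1 of the 8, *MIG2*, passed (largest difference 0.60, adjusted p = 0.0968 in edgeR), where 1.66% of all genes did. This call was lost in 4 of 8 alternatives and in 16 of 25 omissions of a library.

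In the other lists 0 genes passed in any of the 5 comparisons, where 0.123% to 1.66% of all genes tested did. These lists held 7 partners of Grr1, Rgt1 and Yck1 (genes of ubiquitination by the SCF ligase, the Cyc8-Tup1 co-repressor and the palmitoyltransferase gene *AKR1*). They also held 8 genes of the Snf1 and Mig1 route of glucose repression and 8 genes of the Gpr1 and protein kinase A route. The last list was the 2 other casein kinase I genes. In *RGT2(V539I)* 0 genes of these lists had an unadjusted p under 0.05 in edgeR, where 384 of all 5713 genes tested did. The medians by list lay between -0.059 and -0.0088. Elsewhere 2 partner genes (*CYC8* and *TUP1*) had such a p in YFA1131 against YFA1130, where 555 of all genes did. Across harvest batches 1 (*SKP1*) did, where 573 of all genes did. DESeq2 also called 0 genes of these lists in each comparison, with the same 3 genes at an unadjusted p under 0.05.

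The 5' flank of *MTH1* held several runs of letters that match binding motifs of Rgt1 and Mig1. In the 1000 bases before its start codon there were 4 matches to the Rgt1 motif CGGANNA and 3 to a Mig1 motif (the letters GCGGGG, the letters GTGGGG, the letters CCGGGG or the letters CTGGGG), both strands searched. At least as many were found before 3.56% and 2.95% of the 5561 genes with such a window. All 7 lie within the stretch shown, from 650 to 414 bases before the start codon, where no gene is annotated. Matches are in capitals.
MTH1, chrIV:1016116-1016352, reverse strand: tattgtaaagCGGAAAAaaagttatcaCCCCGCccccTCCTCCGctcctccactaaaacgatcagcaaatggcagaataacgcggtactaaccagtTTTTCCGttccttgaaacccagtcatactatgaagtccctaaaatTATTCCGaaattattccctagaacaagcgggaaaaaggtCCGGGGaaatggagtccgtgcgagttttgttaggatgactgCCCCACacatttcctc
*STD1* had 3 matches to the Rgt1 motif and 0 to the Mig1 motif in the same window, and at least 3 Rgt1 matches occurred before 11.4% of genes. *RGT1* also had 3 and 0, *YCK1* had 2 and 1, *YCK2* had 1 and 0, *SNF3* had 0 and 2, and *RGT2* and *GRR1* had 0 of either. All 8 listed Rgt1 targets held at least 1 match to each motif, so matches to both were not particular to *MTH1*. Single matches were common, with at least 1 to the Rgt1 motif before 66.6% of the 5561 genes and to the Mig1 motif before 41.6%. A match is not a binding site, and binding was not measured.

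The OAF1 and OLE1 strains gave a view of the pathway in edits outside it. In *OAF1(L63S)* 0 of 8 genes passed the 10% FDR, where 1.23% of all genes did, and in *OLE1(FAR)* 0 of 8, where 0.875% did. An unadjusted p under 0.05 was reached by 0 of 8 genes in both comparisons, in edgeR as in DESeq2, and DESeq2 called 0. Of all 5713 genes tested, 349 reached it in *OAF1(L63S)* and 443 in *OLE1(FAR)* in edgeR. Fitted log2 fold changes ran from -0.030 to 0.083 in *OAF1(L63S)* and from -0.044 to 0.19 in *OLE1(FAR)*.

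*MTH1* again spread most. It was at 31.2 (A), 47.5 (B), 47.5 (D), 24.6 (E) and 44.7 (F) CPM in *OAF1(L63S)*, and at 46.3 (C), 46.4 (D), 25.9 (E), 46.7 (F) and 77.7 (G) CPM in *OLE1(FAR)*, against 43.2 (A), 40.7 (D), 29.3 (E), 25.9 (F) and 54.1 (G) CPM in YFA1130. The lowest library of each of these 3 strains came from isolation batch 4 and harvest batch 3. In isolation batch 4, *MTH1* was at 65.1 CPM in *RGT2(V539I)* and 37.7 CPM in YFA1131, both from harvest batch 1. The log2 fold change of *MTH1* was 0.081 in *OAF1(L63S)* (95% interval -0.14 to 0.30) and 0.19 in *OLE1(FAR)* (95% interval -0.035 to 0.41). *STD1* had log2 fold changes of -0.011 (95% interval -0.092 to 0.071) and -0.044 (95% interval -0.13 to 0.040) in these strains.

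Of the sensors, *RGT2* had log2 fold changes of 0.069 in *OAF1(L63S)* and 0.094 in *OLE1(FAR)*, and *SNF3* of 0.051 and 0.082. *YCK1* was at 0.057 and 0.098 and *YCK2* at -0.030 and 0.044. *GRR1* was at 0.019 and 0.072 and *RGT1* at 0.083 and 0.059. Both comparisons share the YFA1130 libraries, so the like signs of most values are not independent.

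Between the wild types, 0 of 8 genes passed the 10% FDR, where 0.123% of all genes did. An unadjusted p under 0.05 was reached by 555 of all 5713 genes tested in edgeR. Of the 8 genes, 2 reached it in edgeR and in DESeq2, which called 0. These were *STD1*, at 81.3 ± 9.62 CPM in YFA1131 and 76.1 ± 12.4 CPM in YFA1130 (log2 fold change 0.11, adjusted p = 0.350 in edgeR), and *YCK1*, at 174 ± 14.1 CPM in YFA1131 and 159 ± 10.1 CPM in YFA1130 (0.13, adjusted p = 0.38 in edgeR; SD, n = 5 each). With the mean of both wild types in place of YFA1131, the log2 fold change in *RGT2(V539I)* was -0.10 for *STD1* (adjusted p = 0.405 in edgeR) and 0.49 for *MTH1* (adjusted p = 0.0144).

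Across the 3 harvest batches 0 of 8 genes passed the 10% FDR, where 1.66% of all genes did. *STD1* had an unadjusted p under 0.05 in edgeR (0.0247, adjusted p = 0.387), as did 573 of all 5713 genes tested. In DESeq2 0 of the 8 genes did, and 0 were called. The largest fitted difference between any 2 batches was 0.19 on the log2 scale for *MTH1* and 0.043 to 0.11 for the other 7. *MTH1* averaged 45.8 ± 11.7 CPM in harvest batch 1 (n = 6), 46.2 ± 10.2 in batch 2 (n = 7) and 43.0 ± 16.4 in batch 3 (n = 12), with ranges that overlapped throughout. Without surrogate variables *YCK1* (0.12, adjusted p = 0.0686 in edgeR) and *GRR1* (0.13, adjusted p = 0.0757) passed, 2 of 8 genes in a fit where 33.2% of all genes tested did.

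The genes most like each member over the 25 libraries were sought among 4969 others with a mean of at least 10 CPM, by Pearson's r of log2 CPM. For *MTH1* they were *HAP4*, a subunit of the respiratory activator complex (r = 0.88), *HXT7* (0.88) and *MCR1*, a mitochondrial reductase gene (0.87). For *STD1* they were *STP4* (0.90), *PIC2* (0.89), a mitochondrial carrier gene, and *HSP30* (0.88). *YCK1* was most like *PTC2* (0.93), *THR1* (0.93) and *ARE1* (0.92), and *YCK2* most like *GLT1* (0.89), *SRO9* (0.88) and *STE23* (0.87). *GRR1* was most like *MLP2* (0.88), *ENA5* (0.86) and *FUN12* (0.86), and *RGT1* most like *HSP150* (0.87), *CAM1* (0.86) and *MSN2* (0.86). The values were lower for the sensors, with *YIL080W* (0.73), *CRN1* (0.73) and *FIG2* (0.72) for *RGT2*, and *PRP16* (0.73), *AFI1* (0.71) and *FET3* (0.68) for *SNF3*. These are descriptions of libraries that share batches and strains.

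Within strains *MTH1* moved with several of the Rgt1 targets. With each strain's mean removed, Pearson's r over 25 libraries was 0.90 with *MIG2*, 0.88 with *HXT4*, 0.86 with *HXT7* and 0.75 with *HXT1*. With the strain means kept, r was 0.63 for *MIG2*, 0.74 for *HXT4*, 0.88 for *HXT7* and 0.16 for *HXT1*. *HXT1* and *MTH1* thus varied in the same direction among cultures of a strain, while *HXT1* was lower and *MTH1* higher in *RGT2(V539I)* than in YFA1131.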

How the data were processed

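Poly(A) RNA from 25 yeast cultures was sequenced, 5 cultures for each of 5 strains, with groups and culture letters taken from the labels. Per the labels, the authors used bcl2fastq 2.20.0.422, Trimmomatic 0.38 and kallisto, with the R64 (sacCer3) build. The deposited values are estimated counts per gene, unnormalised, of which 6.55% were not whole, and they were rounded. Genes above 0 in every library (5713 of 6713) were fitted together in edgeR 4.0.16 (quasi-likelihood, TMM, R 4.3.3) with genotype, harvest, RNA isolation and library preparation batch (2 levels) and 2 surrogate variables from sva 3.50.0. P-values were adjusted by the Benjamini-Hochberg method over all genes, at a 10% FDR. Harvest was tested with its coefficients together. CPM are TMM-normalised. Single genes were also compared by exact permutation of log2 CPM (prior count 0.5, alternative 2; scipy 1.17.1). The code was tested on simulated data. Alternatives used DESeq2 1.42.0, RLE factors, other filters, terms and samples, and each library left out.

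All 8 pathway genes were named in each comparison, with genes of 5 lists past the FDR (all when 8 or fewer), the neighbours of *RGT2*, and the 3 most similar genes per member. The members and lists were chosen with earlier results of these data known. The isolation batch served as a replicate block because each batch held 1 culture of each strain. Deviations of libraries isolated together correlated across genes at r of -0.47 to 0.53, above 0.1 in 10 of 20 pairs. Sequences came from the RefSeq R64 genome, and coding lengths from its annotation.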

Additional observations from a re-analysis of the deposited data

Results flagged for a closer look

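In 2 of the 40 groups of 5 libraries examined (8 genes in 5 strains), 1 library stood far from the other 4, where chance flags about 1 group in 20. Both concern *YCK1*. It was at 142 CPM in *OAF1(L63S)* replicate B, against 166 to 174 in the other libraries of that strain, and at 145 CPM in *OLE1(FAR)* replicate C, against 170 to 175 in the others.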

How the results depend on the processing

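In *RGT2(V539I)* against YFA1131 the count of pathway genes past the 10% FDR was 1 with RLE factors, with DESeq2, with either other filter on low counts, with library preparation at 4 levels, with both wild types as reference, and without *OAF1(L63S)* replicate A and *OLE1(FAR)* replicate C together. It was 0 without surrogate variables, with genotype only, without the replicate block (RNA isolation batch) and with only the 10 libraries compared, and 0 to 1 with each library left out. The gene left was *MTH1* in 6 of these alternatives and *STD1* at 4 library levels. Across harvest batches the count was 0, but 2 of 8 without surrogate variables, where 33.2% of all genes passed. Of 928 values of pathway genes over these settings, 34 changed sign, all of them log2 fold changes of uncalled genes. The 928 also include values of called genes and the unsigned harvest differences, which cannot change sign. In YFA1131 against YFA1130 *SNF3* was at 0.0030 with RLE factors, 0.0038 with DESeq2, 0.017 without surrogate variables, 0.0031 without the replicate block, 0.018 with 10 libraries, 0.0016 without both libraries named above and -0.055 to 0.079 with each library left out, *RGT2* at -0.033 at 4 library levels and *MTH1* at -0.046 to 0.11 with each library left out. In *OAF1(L63S)* *MTH1* was at -0.0011 without surrogate variables and -0.025 with 10 libraries, *YCK1* at -0.0063 and *GRR1* at -0.014 with both wild types, and *STD1* at -0.017 to 0.024 and *YCK2* at -0.070 to 0.0030 with each library left out. In *OLE1(FAR)* *STD1* was at 0.023 without surrogate variables, 0.018 with genotype only and 0.010 at 4 library levels, where *RGT2* was at -0.044, *YCK2* at -0.011 and *RGT1* at -0.0012, and with each library left out *YCK2* was at -0.0078 to 0.075 and *RGT1* at -0.011 to 0.10. In *RGT2(V539I)* *YCK1* was at 0.0075, *YCK2* at 0.0040 and *RGT1* at 0.014 with both wild types, and *RGT1* at 0.0094 without both libraries named above and -0.078 to 0.011 with each left out. The causes were not tested. Genes called over the whole table ranged from 4 to 98 in *RGT2(V539I)*, 3 to 130 in *OAF1(L63S)*, 1 to 65 in *OLE1(FAR)*, 1 to 84 between the wild types and 7 to 1897 across harvest batches over the alternatives, and *MIG2* lost its harvest call in 4 of 8. The prior count of the permutation test changed no call.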
